A study of Mus musculus with 8 samples.

Results

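The response of wild-type mouse fibroblasts to serum was measured on 4 of the 8 arrays of a study of Med23, the gene of a subunit of Mediator, the complex that joins DNA-bound activators to RNA polymerase II. The cells were embryonic fibroblasts, taken at embryonic day 11 and passaged through crisis, the stage after which an immortal line grows out of a primary culture. They were held for 16 h in medium with 0.5% fetal bovine serum (FBS). In the starved group, 2 arrays (set 1 and set 2), RNA was taken at that point. In the serum group, also 2 arrays (set 1 and set 2), the serum was first raised to 20% FBS for 30 min. The other 4 arrays hold Med23-/- cells given the same 2 treatments, and they enter here through the shared estimate of the spread and where the responses of the genotypes are set against each other. The labels describe each genotype as 1 kind of culture and leave it unstated whether duplicates were grown as separate cultures. The p-values therefore cover only the spread between these samples, which may be technical. The analysis took every probe set, apart from array controls, that lay at or above its array's 40th percentile on at least 2 of the 4 wild-type arrays, which were 13873 of 22626. They cover 7873 named genes.

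Fibroblasts deprived of serum leave the cell cycle, and the return of serum delivers growth factors and lysophospholipids that switch on the MAP kinase cascade. Within minutes, without new protein synthesis, this induces the immediate early genes. Many of their promoters hold a serum response element, where serum response factor (SRF) sits on a sequence called the CArG box beside a ternary complex factor that MAP kinase phosphorylates and that can contact MED23. The products are transcription factors, secreted signals, and inhibitors that shut the pathway off again. Starved cells in turn express genes that FoxO factors and growth arrest keep high.

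The deposited signals had been scaled by the authors to one trimmed mean, 2500.6 to 2500.7 on the wild-type arrays, with median signals of 879 to 924. Across probe sets, the replicate arrays had r = 0.982 (starved) and 0.98 (serum), and starved with serum arrays at 0.954 to 0.962. These correlations are across probe sets, which are not independent replicates. Med23 itself read 4901 and 5410 on the starved and 3595 and 3577 on the serum arrays of wild-type cells, against 28 to 132.5 on the knockout arrays. Its change with serum in wild-type cells did not pass the test (log2 -0.52 ± 0.449 SE, limma adjusted p = 0.605). That SE pools all 8 arrays, among them the dim and spread readings of the deleted gene on the starved knockout arrays (28 and 132.5), whereas the wild-type duplicates lay close together and did not overlap between states. Part of the fibroblast marker list was absent or dim. Col1a1, Vim and Fn1 read 43590 or more on every wild-type array, and 8 of 12 markers lay above the 40th percentile on all 4, whereas Pdgfra, Thy1, Lum and Fap lay below it on all 4. Of the markers of other cell types, 5 of 8 epithelial, 6 of 7 endothelial, 5 of 8 blood, 5 of 6 muscle and 3 of 6 neural genes lay below the 40th percentile on all 4 arrays. The summed signal of the fibroblast list was 167600 and 188200 on the starved arrays and 170200 and 182300 on the serum arrays, and that of the blood list 2749 and 2786 against 4009 and 3246. The endothelial list, dim as a whole, summed to 1141 and 1074 against 1473 and 1426. The summed neural list was 6411 and 6295 on the starved and 9136 and 8190 on the serum arrays, where Nes, an intermediate filament gene also active in dividing mesenchymal cells, rose by 0.87 ± 0.166 (adjusted p = 0.016, but 0.0572, 0.137 and 0.148 without starved array 1, starved array 2 or serum array 1). The ratio of 3' to 5' signal for Tfrc was 4.23 and 3.35 on the starved against 3.11 and 2.57 on the serum arrays. That for Actb was 1.03 to 1.05 and that for Gapdh 0.783 to 0.84 over the same 4 arrays. The part of the Tfrc difference in the results was not tested. The samples are bulk RNA, in which fewer cells of a type and less RNA per cell cannot be told apart.

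The wild-type arrays of set 1 and set 2 differed from each other in a small group of genes, in the starved and in the serum state alike. Col1a2, a chain of type I collagen, read 581.4 on starved array 1 and 742.9 on serum array 1, but 8871 on starved array 2 and 9443 on serum array 2. Its second probe set read 175.5 and 162.2 on set 1 against 3656 and 3966 on set 2. The basement membrane gene Nid1 read 13.01 and 18.17 on set 1 against 411.3 and 458.6 on set 2, and the muscle-related factor Mef2c 15.59 and 30.34 against 265.1 and 454.5. Meg3, an imprinted non-coding RNA, ran the other way, with 513.2 and 663.6 on set 1 against 68.9 and 82.13 on set 2. In all, 25 probe sets were over 2-fold higher on set 2 in both states and 21 on set 1, while 17 were over 2-fold apart in opposite directions. Since these 46 same-direction probe sets were chosen for a wide spread between replicates, which also enters the test of serum, no count of calls among them is given.

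**Figure D1:**
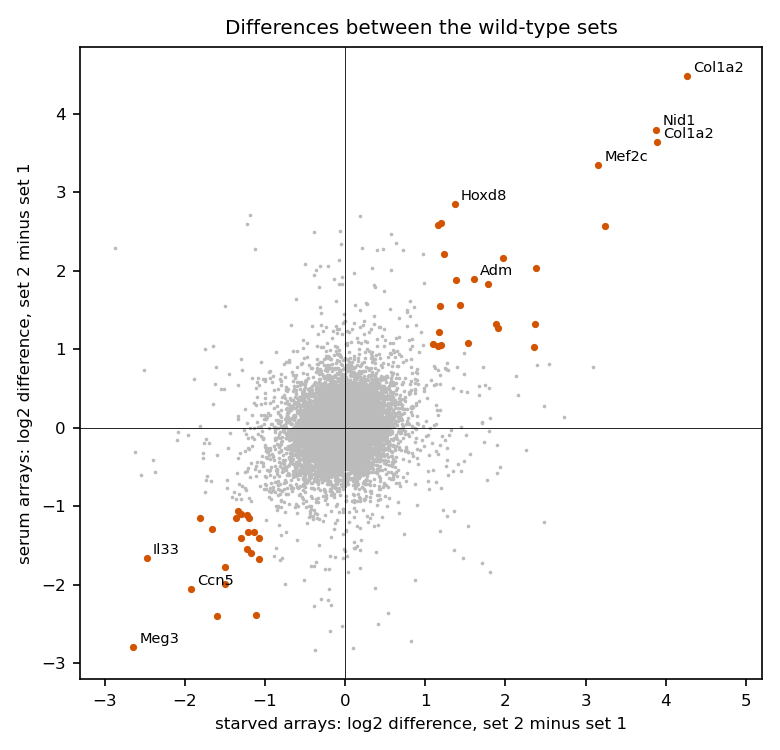
Each point is 1 of the 14947 probe sets tested, placed by its log2 difference between set 2 and set 1 on the starved wild-type arrays (x axis) and on the serum wild-type arrays (y axis); the 46 probe sets over 2-fold apart in the same direction in both states are in orange. Col1a2, Nid1 and Mef2c lie at the upper right, higher on set 2 in both states, and Meg3 and Il33 at the lower left.

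Serum for 30 min changed 4.14% of probe sets in wild-type cells, and the largest changes were rises. By limma, with an adjusted p under 0.05 over the 14947 probe sets tested on all 8 arrays, 365 (2.44%) were called up and 254 (1.7%) down. By the study's own measure, a change over 2-fold, taken here with no overlap of arrays, 453 (3.03%) changed, 264 up (1.77%) and 189 down (1.26%). Of the 13873 probe sets present in wild-type cells, 358 rose, from 260 genes, and 229 fell, from 194 genes. The median rise was 2.24-fold and the median fall 1.81-fold. Rises over 4-fold numbered 74 and over 16-fold 13, whereas falls over 4-fold numbered 11 and over 16-fold 1. Among all members the median change was -0.05 on the log2 scale. For 36 of the rises both starved arrays, and for 32 of the falls both serum arrays, lay below the 40th percentile, where these signals are noisy and the fold depends on the 16 units added before taking log2.

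The count depends on each array. Without starved wild-type array 1 the calls numbered 312, without starved array 2 334, without serum array 1 338 and without serum array 2 399, in fits where the remaining array of the group is assumed to vary like the other groups. Called in each of the 8 fits that left out 1 array were 178 of the 358 rises and 43 of the 229 falls (49.7% and 18.8%). For 1 gene, an exact two-sided permutation test of 2 against 2 arrays has a smallest p of 0.333, and the calls rest on the spread pooled over groups and probe sets. Starved and serum arrays were without overlap for 50.3% of the probe sets tested, so that alone marks no gene out. Where a called gene had at least 2 member probe sets (229 genes), all of them changed with the same sign in 207 genes and all were called the same way in 56. No gene had probe sets called in both directions.

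**Figure D2:**
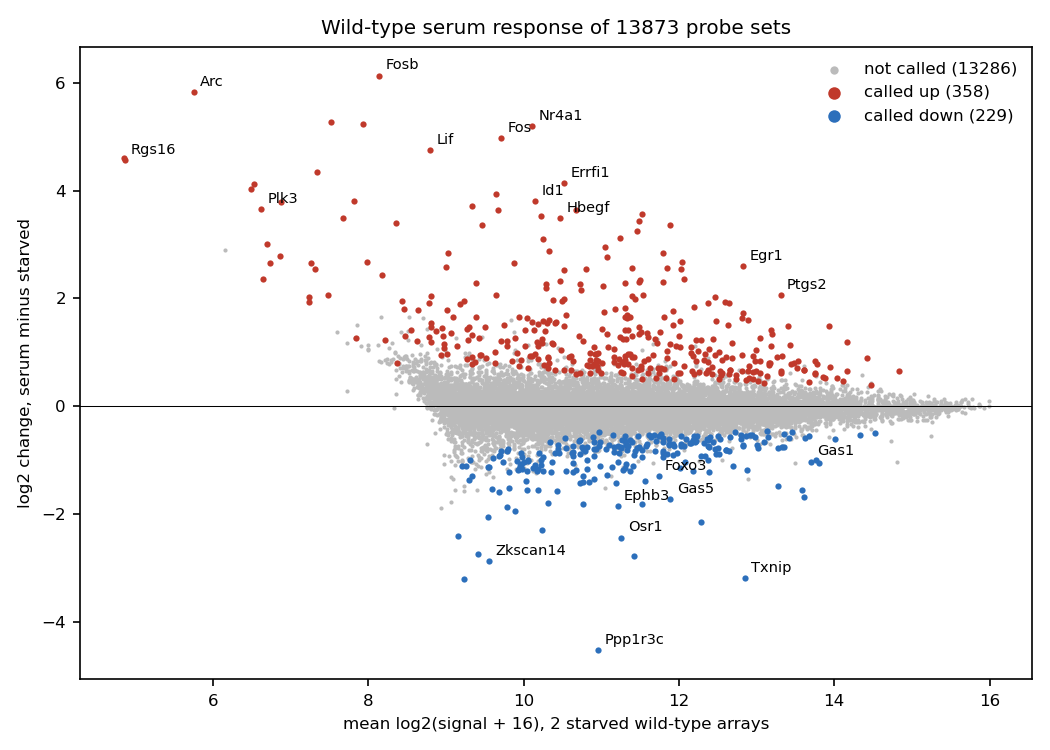
Each point is 1 of 13873 probe sets, with the mean log2(signal + 16) of the 2 starved wild-type arrays on the x axis and the log2 change with serum on the y axis; red marks the 358 rises and blue the 229 falls called by limma, grey the rest. The rises reach further from 0 than the falls, and several of the largest (Arc, Rgs16, Plk3) start from starved levels at the low end of the scale.

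The transcription factors of the AP-1 family, dimers of FOS and JUN type proteins that bind TPA response elements, included Fosb, the largest rise named by the rule. Of 11 members measured in wild-type cells 9 rose and none fell, beside 2.9% of genes called up and 1.92% called down when each of 7871 genes is represented by its brightest probe set. Their median log2 change was 2.57, against -0.06 over those genes. The same shares over all genes stand beside the counts of every list below. All lists were chosen with earlier results of these data known, so their counts are a description and no test of the lists. Fosb read 300.9 and 236.5 on the starved arrays and 21350 and 18410 on the serum arrays (log2 change 6.13 ± 0.157 SE, adjusted p = 2.39e-08). Fos read 916.4 and 736.7 before and 28320 and 24150 after serum (4.97 ± 0.168, adjusted p = 1.48e-07). Fosl1, which encodes FRA-1, read 880.7 and 690.5 before and 13650 and 10960 after (3.94 ± 0.188, adjusted p = 1.26e-06). Both serum arrays stood far above both starved arrays for each of the 3, and Fosb started from signals below the 40th percentile of its arrays. Junb, with 3152 and 3987 before and 25570 and 25230 after serum, rose by 2.84 ± 0.172, and Jun, with 2552 and 2818 before and 15870 and 16090 after, by 2.57 ± 0.14. The small MAF factors, which pair with AP-1 and NRF proteins, were split: Maff rose by 2.53 ± 0.183 and Mafk by 1.75 ± 0.194, while Mafg (0.4) and the constitutive JUN partner Jund (0.23) did not pass the test. The rises of Atf3, a stress-induced member of the wider family (3.1 ± 0.528), and of Fosl2 (0.97 ± 0.227) depended on single arrays. That of Atf3 had adjusted p = 0.0706 and 0.0779 without starved array 1 or serum array 1, and that of Fosl2 0.235, 0.236 and 0.0979 without starved array 2, serum array 1 or serum array 2, and 0.0536 to 0.0638 without single knockout arrays.

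EGR zinc finger factors, NR4A orphan nuclear receptors and their partners responded in the same range. Of 9 members 8 rose and none fell, with a median of 2.6. Nr4a1 read 1134 and 1046 on the starved arrays and 41060 and 39460 on the serum arrays (5.19 ± 0.171), which made it one of the brightest induced probe sets after serum. Egr1 read 6993 and 7545 in starved cells and 44250 and 44090 after serum, a smaller change of 2.6 ± 0.156 from a higher start. Egr2 rose by 5.28 ± 0.194 and 5.24 ± 0.333 on its 2 probe sets, the first from 176.2 and 158.4 to 7922 and 6355. Egr4 went from 66.95 and 299.5 to 3917 and 2769 (4.35 ± 0.505), and its starved arrays differed from each other by more than those of Egr2. Egr3 rose by 2.59 ± 0.252. Nab2, a co-repressor that EGR proteins induce and that then holds them in check, rose by 1.66 ± 0.193, while its relative Nab1 changed by 0.34 and did not pass. Arc, best known as an activity-regulated gene of neurons and grouped here because EGR and SRF sites drive it there, read 27.68 and 50.18 before and 3791 and 2435 after serum (5.83 ± 0.3). Its starved signals lie at the bottom of the scale, so the size of that change depends on the added constant. Nr4a2 rose by 1.35 ± 0.235, with adjusted p = 0.0763 and 0.0925 without starved array 1 or serum array 1.

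**Figure D3:**
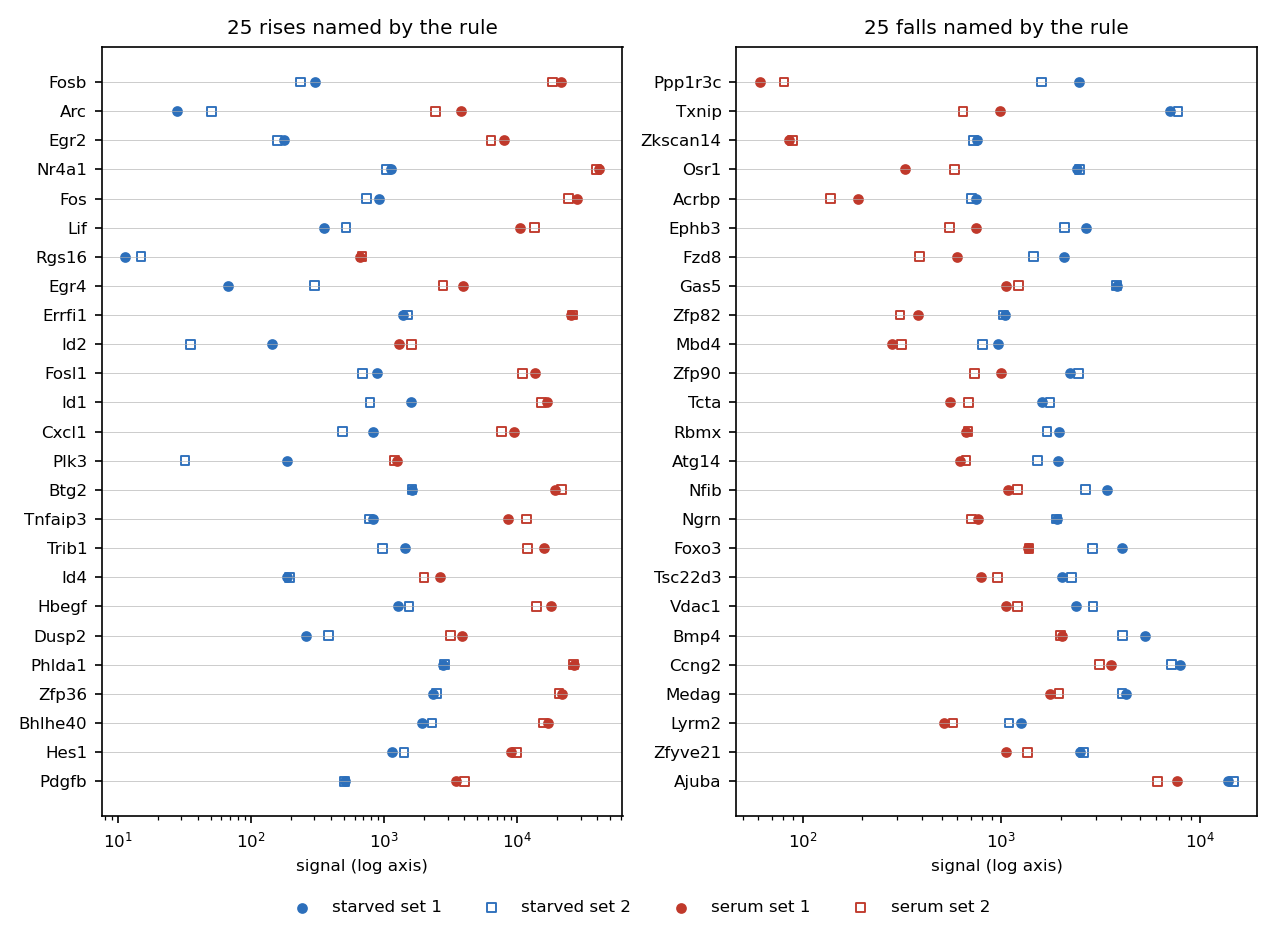
Signal on a log axis for the 25 rises (left) and 25 falls (right) named by the rule, largest change at the top; filled circles are set 1 and open squares set 2, blue for starved and red for serum wild-type arrays (1 array each). In every row the 2 serum arrays lie on one side of the 2 starved arrays, as the rule requires, and the starved arrays of Egr4, Id2 and Plk3 stand furthest apart from each other.

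Other early transcription regulators gave 16 rises and 1 fall among 25 members, with a median of 0.97. Fosl2 is counted here and in the AP-1 list, and Per1 here and in the clock list. The rises of Cebpb (0.83 ± 0.137), Irf1 (0.93 ± 0.156), Ier5l (1.17 ± 0.265) and Fosl2 (0.97 ± 0.227) were lost without single wild-type arrays. Bhlhe40, a repressor that also acts in the circadian clock, read 1926 and 2291 before and 17110 and 15860 after serum (2.96 ± 0.129). Hes1, a repressor otherwise known as a Notch target, read 1139 and 1413 before and 8958 and 9833 after (2.87 ± 0.162, 7.32-fold). Ier3 (2.67 ± 0.119), Klf10 (2.57 ± 0.111) and Ier2 (2.54 ± 0.121) rose to a similar degree, Ier3 from 4055 and 4362 to 29190 and 24620. Snai1, a repressor of epithelial genes, went from 3256 and 1948 to 12950 and 11780 (2.29 ± 0.227). The KLF family was mixed: Klf10, Klf9 (1.22 ± 0.177) and Klf7 (0.97 ± 0.161) rose, while Klf4 (0.62), Klf6 (0.55) and Klf2 (-0.02) did not pass at this time. Myc, a standard serum-induced gene, went only from 6096 and 6644 to 10100 and 9077 (0.59 ± 0.114, adjusted p = 0.017). The calls of Klf7 and Myc were lost without single wild-type arrays, at adjusted p up to 0.0584 for Klf7 without starved array 1 and up to 0.138 for Myc without serum array 1. Cebpd was the single fall, by -0.66 ± 0.144 from 5382 and 4147 to 2871 and 3107, and it too was lost without starved array 1, serum array 1 or serum array 2 (adjusted p = 0.182, 0.171 and 0.0892).

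Srf and some of the genes it binds passed the test, and most of the listed genes did not. Srf itself rose, from 3781 and 4434 to 11170 and 13550 (1.58 ± 0.128, adjusted p = 5.32e-05), with its second probe set at 1.48 ± 0.176. None of its 5 measured cofactors, the ternary complex factor genes Elk1, Elk3 and Elk4 and the myocardin-related Mrtfa and Mrtfb, passed the test, with changes of -0.12 to 0.19. Of 25 actin, contractile and adhesion genes bound by SRF 4 rose and none fell, with a median of 0.15. Itga5, the fibronectin receptor subunit, rose from 3603 and 4108 to 10160 and 11700 (1.5 ± 0.143), and Fhl2, a LIM protein that SRF activates and that binds it in turn, from 4551 and 3739 to 9586 and 8117 (1.09 ± 0.145). The smaller rises of the focal adhesion genes Zyx (0.47 ± 0.0928) and Pdlim7 (0.53 ± 0.107) were lost without single wild-type arrays, at adjusted p of up to 0.117 for Zyx and 0.129 for Pdlim7. The count was then 2 without starved array 1, serum array 1 or serum array 2. The 21 others, Actb (-0.01), Acta2 (0.12) and Vcl (0.21) among them, lay between -0.11 and 0.37 and did not pass. Actb and Acta2 were already bright in starved cells, at 52390 and 61650 and at 48340 and 55020. At an unadjusted p under 0.05, 7 of the 25 rose and 0 fell.

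CArG boxes near the start of the responding genes are shown to place these members among the known promoters of the pathway. The box (CC, a run of A or T, then GG, the same pattern on both strands) was searched in the 250 bases before each RefSeq start in the table for GRCm38.p6. It was present for 8 of 201 genes called up that had a sequence there (3.98%) and for 7 of 98 called in every fit that left out an array (7.14%). It was present for 0 of 160 genes called down, and for 1.47% of the 6462 member genes with a sequence. These shares are descriptions of the letters in a short window, not of binding, and serum response elements further upstream fall outside it. The stretches below run from 250 bases before the start to the base before it, 5' to 3' along the gene, with CArG boxes in capitals.
Srf (chr17:46556163-46556412, minus strand): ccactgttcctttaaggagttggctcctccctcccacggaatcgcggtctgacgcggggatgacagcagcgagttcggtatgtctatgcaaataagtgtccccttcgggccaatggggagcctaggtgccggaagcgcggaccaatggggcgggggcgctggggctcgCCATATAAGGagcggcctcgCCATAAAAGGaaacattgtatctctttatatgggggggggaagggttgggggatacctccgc
Zfp36 (chr7:28379229-28379478, minus strand): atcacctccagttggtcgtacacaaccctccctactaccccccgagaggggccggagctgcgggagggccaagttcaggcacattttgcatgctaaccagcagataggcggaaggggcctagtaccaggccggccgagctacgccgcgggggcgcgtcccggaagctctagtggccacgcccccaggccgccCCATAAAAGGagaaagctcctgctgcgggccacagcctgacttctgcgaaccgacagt
Fhl2 (chr1:43196762-43197011, minus strand): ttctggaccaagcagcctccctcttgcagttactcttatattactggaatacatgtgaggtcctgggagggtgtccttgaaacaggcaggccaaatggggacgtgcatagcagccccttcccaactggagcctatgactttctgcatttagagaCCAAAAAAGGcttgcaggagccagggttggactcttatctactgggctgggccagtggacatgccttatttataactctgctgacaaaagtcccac
The Srf stretch holds 2 boxes, at 82 to 73 and 62 to 53 bases before the start, the Zfp36 stretch 1 at 58 to 49 and the Fhl2 stretch, from the more upstream of 2 starts, 1 at 96 to 87. Egr2, which had the largest rise among the named genes with a box, holds CCATATATGG at 72 to 63 bases before a start on the plus strand of chromosome 10.

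Among 21 genes listed under MAP kinase and receptor feedback 11 were called up, 1 down and 9 in neither direction, with a median of 0.84. The list holds inhibitors of growth factor signalling, but also kinase genes such as Plk2, Plk3 and Sgk1. Errfi1, which binds and blocks the EGF receptor, read 1396 and 1506 before and 25500 and 26020 after serum on one probe set (4.14 ± 0.109) and rose by 3.57 ± 0.159 on the other. Trib1, a pseudokinase that directs protein degradation, went from 1424 and 976 to 15890 and 12010 (3.53 ± 0.188). The polo-like kinase gene Plk3 rose by 3.65 ± 0.555, with starved readings of 187.1 and 31.94 that lie far apart for 1 group. The RGS protein gene Rgs16, which speeds up GTP hydrolysis by G protein alpha subunits, was near the floor in starved cells (11.4 and 14.91) and read 659.7 and 681.8 after serum. Its 3 probe sets gave 4.56, 2.78 and 2.66, so only the direction is common to them. Phlda1 (3.25 ± 0.156), which lies downstream of the same cascade and was named by the rule for the largest rises, went from 2758 and 2827 to 26840 and 26490.

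The dual-specificity phosphatases, which remove the activating phosphates from MAP kinases, rose in 5 of 8 cases, to different degrees. Dusp2 went from 256.9 and 382.3 to 3825 and 3133 (3.4 ± 0.227), Dusp6 from 7815 and 4867 to 27760 and 20280 (1.94 ± 0.233) and Dusp1 from 4488 and 4860 to 18970 and 14780 (1.84 ± 0.175). Dusp8 (1.3 ± 0.288) and Dusp7 (0.86 ± 0.139) also passed, but at adjusted p of up to 0.214 and 0.0571 without serum array 2. Dusp10 (0.25), Dusp14 (0.3) and Dusp16 (0.25) did not pass the test. The sprouty genes, inhibitors of RAS activation, went apart: Spry2 rose from 878 and 700.6 to 3298 and 3415 (2.07 ± 0.141), while Spry1 read 4011 and 6534 before and 2367 and 3041 after serum (-0.93 ± 0.225, adjusted p = 0.049). The Spry1 call was lost in 7 of the 8 fits that left out an array, at adjusted p of up to 0.272 without starved array 2, so it rests on a narrow margin.

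Genes that shorten the life of mRNA or restrain growth were induced as well. Of 9 members of the RNA decay and BTG list 5 rose and none fell, with a median of 0.9. Zfp36, whose product tristetraprolin binds AU-rich elements and brings in the deadenylase, went from 2351 and 2465 to 21590 and 20600 (3.12 ± 0.133). Btg2, an antiproliferative protein of the same deadenylase pathway, went from 1621 and 1619 to 19210 and 21650 (3.64 ± 0.159), and the RNase gene Zc3h12a rose by 2.44 ± 0.289. The paralogs Zfp36l2 (0.94 ± 0.203) and Tob2 (0.9 ± 0.212) were lost without single arrays, at adjusted p of up to 0.179 and 0.259, and the count was 3 without starved array 2, serum array 1 or serum array 2. Zfp36l1 (0.32), Btg1 (0.13) and Tob1 (0.19) did not pass. Noct, a circadian deadenylase-like gene chosen after its values were seen, went from 3242 and 3807 to 18490 and 16450 (2.31 ± 0.169).

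The full cAMP response element TGACGTCA, which CREB and ATF proteins bind and which reads the same on both strands, was present in the 250 bases upstream for 14 of 201 genes called up (6.97%), 3 of 160 called down (1.88%) and 3.16% of member genes. Btg2 and Dusp1 hold it, and their stretches are shown with the element in capitals and on the same terms as before.
Btg2 (chr1:134079156-134079405, minus strand): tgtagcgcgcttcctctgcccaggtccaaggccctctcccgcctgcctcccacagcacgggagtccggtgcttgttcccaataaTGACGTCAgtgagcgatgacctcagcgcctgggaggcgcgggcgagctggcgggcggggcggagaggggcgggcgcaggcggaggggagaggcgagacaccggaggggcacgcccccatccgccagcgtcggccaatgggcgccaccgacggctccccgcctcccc
Dusp1 (chr17:26508473-26508722, minus strand): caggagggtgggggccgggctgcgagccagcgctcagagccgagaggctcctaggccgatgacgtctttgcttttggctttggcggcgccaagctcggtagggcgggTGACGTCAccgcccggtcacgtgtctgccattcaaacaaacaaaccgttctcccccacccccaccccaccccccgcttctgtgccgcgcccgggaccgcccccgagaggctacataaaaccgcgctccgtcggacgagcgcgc
The element lies 166 to 159 bases before the start of Btg2 and 143 to 136 before that of Dusp1. The GC box core GGGCGG was present for 85.1% of genes called up, 61.3% of those called down and 67.4% of member genes. TATAAA was present for 11.4%, 10.6% and 7.58%.

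Secreted growth factors and cytokines rose in 9 of 20 cases and fell in none, with a median of 0.86. Lif, an IL-6 family cytokine, read 355.5 and 517.4 before and 10530 and 13530 after serum on one probe set (4.75 ± 0.285), and 3057 and 4593 before and 43150 and 34730 after on a brighter one (3.36 ± 0.334). The related cytokine Clcf1, chosen after its values were seen, rose by 2.65 ± 0.229. Hbegf, an EGF receptor ligand shed from the membrane, went from 2629 and 3057 to 33170 and 28610 (3.43 ± 0.151), and the neutrophil chemokine Cxcl1 from 822.7 and 485.4 to 9533 and 7620 (3.72 ± 0.24). Vegfa, the endothelial growth factor, went from 2911 and 3025 to 12270 and 12790 (2.07 ± 0.113). Pdgfb, which encodes a ligand of fibroblast receptors and was named by the rule for the largest rises, went from 505.1 and 501.1 to 3462 and 4006 (2.85 ± 0.216). The matricellular genes Ccn1 (1.19 ± 0.118) and Ccn2 (0.89 ± 0.183) were bright from the start, Ccn1 at 17850 and 18790 in starved cells. The calls of Ccn2, Csf1 and Inhba were lost without starved array 1, serum array 1 or serum array 2, at adjusted p of up to 0.16, 0.13 and 0.113, and 6 rises were called in each fit that left out an array. Transforming growth factor genes Tgfb1 (0.42), Tgfb2 (0.16) and Tgfb3 (0.07) did not pass.

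Of 11 genes for prostaglandin synthesis, extracellular proteolysis and related early products 5 rose and none fell, with a median of 0.79, and all 5 were called in each fit that left out an array. Ptgs2, the inducible cyclooxygenase, was already at 8820 and 11580 in starved cells and read 41110 and 43050 after serum (2.06 ± 0.171). F3, the tissue factor that starts coagulation, went from 2512 and 2862 to 11190 and 11150 (2.05 ± 0.125), and Plaur, the urokinase receptor, rose by 1.82 ± 0.188. Tnfrsf12a, the TWEAK receptor (1.34 ± 0.16), and Timp1, a metalloproteinase inhibitor (0.79 ± 0.119), completed the group. Thbs1 (-0.04), Odc1 (0.06) and Has2 (0.24) did not pass.

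Genes of the BMP and TGF-beta response rose in 7 of 15 cases and fell in 1, with a median of 0.62. Id1, Id2 and Id4 had the largest rises of the list. The Id proteins bind bHLH factors and keep them off DNA, and BMP signalling through SMAD proteins induces their genes. Id1 read 1604 and 783.8 before and 16720 and 15270 after serum (3.81 ± 0.273), and Id4 185.3 and 193.9 before and 2634 and 1995 after (3.49 ± 0.193). Id3, the brightest of the family, went from 8280 and 6204 to 24000 and 20770 (1.64 ± 0.158), and Id2 from 133.5 and 75.97 to 1646 and 1545 (3.78 ± 0.233). All 4 Id genes were thus higher on both serum arrays than on either starved array. Absence of overlap, in either direction, held for 50.3% of the probe sets tested, so it alone marks no gene out. Smad7, an inhibitor of the receptors, went from 2890 and 2826 to 14140 and 14070 (2.3 ± 0.123), and the SMAD co-repressor gene Tgif1 rose by 1.04 ± 0.115. Skil rose by 0.79 ± 0.177, but had adjusted p = 0.138, 0.129 and 0.158 without starved array 1, serum array 1 or serum array 2. Bmp4, a ligand of the pathway, fell from 5268 and 4058 to 2023 and 1983 (-1.2 ± 0.148). The receptor genes Tgfbr1, Acvr1, Bmpr1a and Bmpr2 did not pass. Atoh8, a bHLH factor chosen after its values were seen, went from 243.3 and 74.75 to 799.7 and 1134 (2.66 ± 0.41).

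NF-kB genes and their inhibitors gave 7 rises and no falls among 14, with a median of 0.56. Tnfaip3, the ubiquitin-editing inhibitor A20, went from 825.8 and 770.4 to 8552 and 11800 (3.63 ± 0.211), and Nfkbiz from 1510 and 1012 to 5870 and 6124 (2.26 ± 0.172). Rel rose by 1.89 ± 0.2 and Nfkbia, the bright inhibitor of the factor, by 0.66 ± 0.0986. Those 4 were the ones called in each fit that left out an array. Nfkb2, Nfkbie and Relb passed with all arrays but not without single wild-type arrays, at adjusted p of up to 0.107 each, and the count was 4 without either starved array. Of 10 small GTPase genes and regulators 4 rose, with a median of 0.22: Rhob (1.12 ± 0.133) and the calcium channel inhibitor Rrad (1.64 ± 0.188) in each fit, and Gem (2.06 ± 0.389) and Rhoj (0.8 ± 0.165) not in each, at adjusted p of up to 0.138 for Gem without serum array 1 and 0.147 for Rhoj without serum array 2. The count was 2 without starved array 1, starved array 2 or serum array 2.

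**Figure D4:**
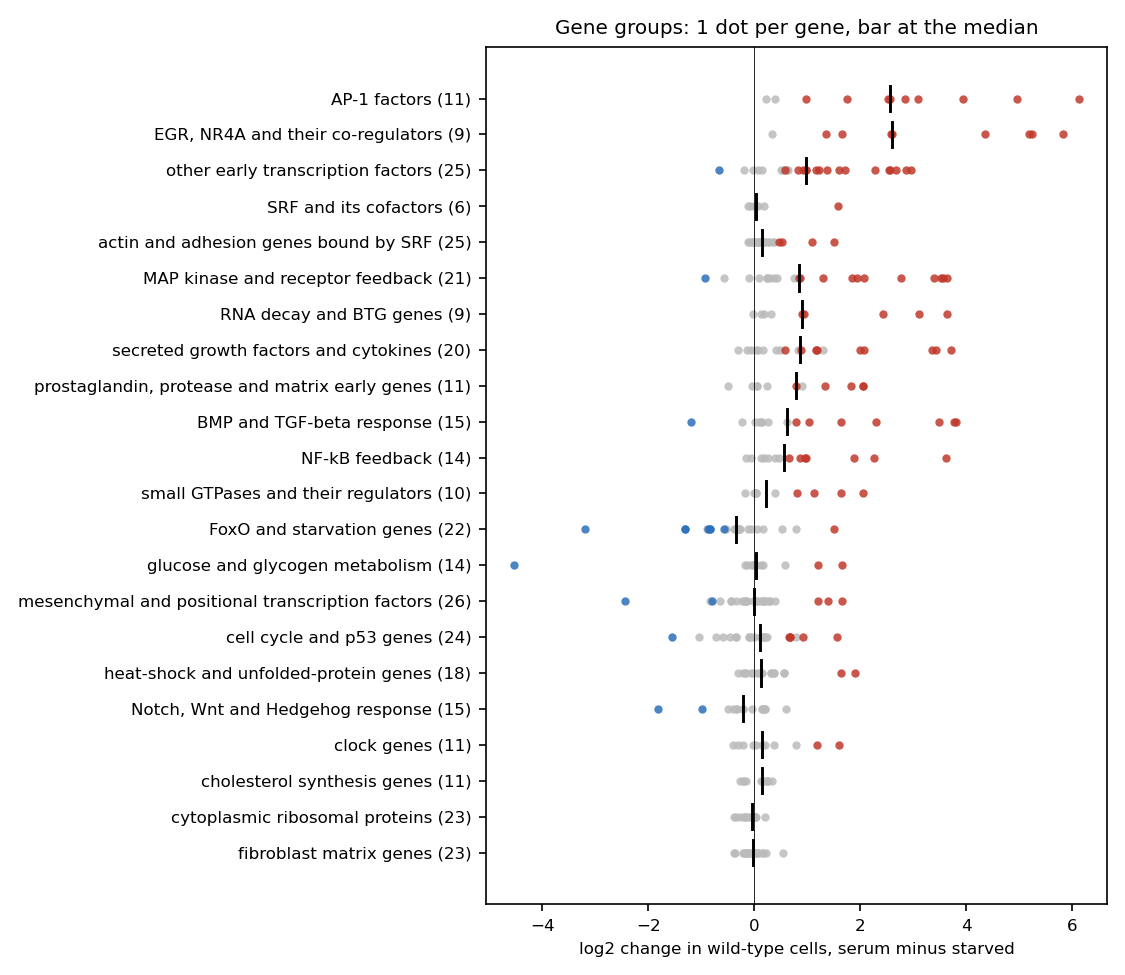
Each dot is 1 gene at its log2 change with serum in wild-type cells (x axis), grouped by list with the number of members in brackets; red and blue dots were called up and down by limma, grey dots were not called, and the black bar is the list's median. The AP-1 and EGR lists have medians of 2.57 and 2.6, the FoxO list -0.34, and the cholesterol, ribosomal protein and matrix lists hold no called gene.

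Of 22 genes listed as kept up by starvation and FoxO factors 7 fell and 1 rose, with a median of -0.34. The 14 not called lay between -0.89 and 0.79. Among them Fbxo32, at the top of that range, went from 2697 and 2866 to 4833 and 4824 (limma adjusted p = 0.0812). At an unadjusted p under 0.05 the list held 10 falls and 3 rises. Txnip, which binds thioredoxin and lowers glucose uptake, read 7044 and 7733 before and 983.3 and 640.6 after serum (-3.19 ± 0.291), and its second probe set gave -2.15 ± 0.218. Ccng2, an unconventional cyclin of arrested cells, went from 7946 and 7158 to 3562 and 3105 (-1.18 ± 0.151) and by -0.88 ± 0.14 on its other probe set, which had adjusted p = 0.0629 without starved array 1. Foxo3 went from 4026 and 2868 to 1363 and 1376 on one probe set (-1.3 ± 0.195), while another Foxo3 probe set gave -0.09 and the dimmest 0.45. The insulin receptor substrate genes moved in opposite directions. Irs1 fell from 6257 and 6580 to 3696 and 3471 (-0.84 ± 0.116), and Irs2 rose from 777.3 and 916.1 to 2581 and 2308 (1.51 ± 0.166). The falls of Bcl6 (-1.3 ± 0.231), Sesn1 (-0.84 ± 0.141) and Hbp1 (-0.58 ± 0.131) were lost without single wild-type arrays, at adjusted p of up to 0.0855, 0.065 and 0.2, and 3 falls were called without starved array 1. Tsc22d3, the glucocorticoid-induced leucine zipper gene named by the rule for the largest falls, went from 2029 and 2247 to 789 and 953 (-1.28 ± 0.174), with 0.27, not called, on its dimmest probe set.

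The Txnip promoter is printed because this gene fell most within the list and its 2 probe sets moved together. The FoxO and forkhead core GTAAACA, in capitals and searched on both strands, lies 121 to 115 bases before the start.
Txnip (chr3:96557707-96557956, plus strand): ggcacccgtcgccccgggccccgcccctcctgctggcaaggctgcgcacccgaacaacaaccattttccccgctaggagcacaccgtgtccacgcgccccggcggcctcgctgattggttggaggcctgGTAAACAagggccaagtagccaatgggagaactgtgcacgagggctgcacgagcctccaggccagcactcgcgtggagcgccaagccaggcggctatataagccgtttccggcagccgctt
The same core was present for 4 of 160 genes called down (2.5%), 3 of 201 called up (1.49%) and 2.55% of member genes. It was present for 3 of 59 genes down over 2-fold (5.08%) and 2 of 30 genes called down in each fit that left out an array (6.67%), counts too small to rank these shares.

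Glucose and glycogen genes gave 2 rises and 1 fall among 14, with a median of 0.02, beside 2.9% of all genes called up and 1.92% called down. Ppp1r3c, which brings protein phosphatase 1 to glycogen and was the largest fall, read 2463 and 1594 before and 61.03 and 80.71 after serum (-4.53 ± 0.277), with serum signals near the floor. A dimmer Ppp1r3c probe set, with 1060 and 441.5 before and 251 and 137.2 after, gave -1.79 and did not pass (adjusted p = 0.0569). The glucose transporter gene Slc2a1 rose from 3867 and 3286 to 11460 and 11090 (1.66 ± 0.19) and Hk2, the inducible hexokinase, from 1752 and 1686 to 4250 and 3737 (1.21 ± 0.139). The glycolytic enzymes Pgk1 (0.12), Ldha (0.03) and Aldoa (0.03) did not pass.

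Of 26 factors that mark mesenchymal identity and position 3 rose and 2 fell, with a median of 0. The shares over all genes were 2.9% called up and 1.92% called down. These counts are small, and no test of the list was made. Osr1, an odd-skipped zinc finger factor of connective tissue, fell from 2401 and 2476 to 326.9 and 581.5 (-2.44 ± 0.241). Foxf2 rose from 461.3 and 440.7 to 1442 and 1021 (1.4 ± 0.211). Sox9, the cartilage factor (1.66 ± 0.264), and Foxc2 (1.2 ± 0.24) also rose, but Sox9 had adjusted p = 0.057 without serum array 1 and Foxc2 up to 0.136 without serum array 2. Six4 fell by -0.79 ± 0.185 and was lost without any single array other than those of the serum knockout group, at adjusted p of up to 0.227, which leaves 1 fall without any wild-type array. A single Nfib probe set fell (-1.38 ± 0.162), while 3 others gave -0.19, 0.1 and 0.24, so the change is not shared by the gene's probe sets. The Wnt receptor genes Fzd8, from 2059 and 1455 to 596.1 and 386 (-1.82 ± 0.241), and Fzd1 (-0.99 ± 0.181) fell among 15 genes of Notch, Wnt and Hedgehog response, in which none rose. The same shares over all genes stand beside this small count. Fzd1 was not called without starved array 1, starved array 2 or serum array 2 (adjusted p = 0.0665, 0.0855 and 0.0666), which leaves 1 fall. Notch1 (0.21), Notch2 (-0.21) and Jag1 (0.18) did not pass.

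Most calls among growth arrest and cell cycle genes at 30 min depended on single arrays. Of 24 members 5 rose and 1 fell, with a median of 0.11, and only Pmaip1, the p53-induced BH3 gene NOXA (1.57 ± 0.151), was called in each fit that left out an array. Gadd45b, Gadd45g, Mdm2 and Mcl1 rose by 0.65 to 0.92, and without starved array 1 the count of rises was 1, without serum array 1 2 and without serum array 2 3. Their adjusted p reached 0.0812, 0.225, 0.147 and 0.104. Cdkn2b, an inhibitor of cyclin D kinases, fell from 11880 and 12760 to 3712 and 4696 (-1.56 ± 0.223), with adjusted p = 0.0568, 0.0758 and 0.0559 without starved array 1, starved array 2 or serum array 1. The cyclin genes Ccnd1 (0), Ccne1 (0.12) and Ccna2 (-0.09) did not pass. Gas1, a growth arrest gene chosen after its values were seen, went from 13250 and 13350 to 6873 and 6178 (-1.03 ± 0.0955).

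Further groups held at most 2 calls each. Of the 144 entries of the 11 lists with rises and no called fall, 2 fell at an unadjusted p under 0.05 (1.39%), Nr1d2 and Tef of the clock list, beside 10.7% of all members, but those lists were picked here for having no called fall, so the low count is no result about them. Among heat-shock and unfolded-protein genes 2 of 18 rose: Dnajb1, a co-chaperone of HSP70, from 6269 and 6578 to 25850 and 22560 (1.91 ± 0.137), and Hmox1, heme oxygenase (1.64 ± 0.306), whose serum arrays of 11900 and 5335 lay far apart and which had adjusted p = 0.109 without starved array 2, which leaves 1 rise. Among 11 clock genes Per1 rose from 1275 and 1264 to 3721 and 4047 (1.6 ± 0.16). Per2 (1.19 ± 0.262) was lost without any single wild-type array, at adjusted p of 0.0504 to 0.201, which leaves 1 rise. By limma none of 11 cholesterol synthesis genes, 23 cytoplasmic ribosomal protein genes or 23 matrix genes was called in either direction, beside 2.9% of all genes called up and 1.92% down, shares at which few or no calls fall in lists of this size. They had ranges of log2 change of -0.27 to 0.33, -0.38 to 0.21 and -0.38 to 0.55. At an unadjusted p under 0.05 there were 1, 2 and 1 falls and 0, 0 and 1 rises. With quantile normalization 1 ribosomal protein gene was called down.

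Among the remaining falls, a pair of patterns was noticed after the values were seen. The first is a set of non-coding host genes of small nucleolar RNAs. Gas5 went from 3795 and 3779 to 1058 and 1215 on one probe set (-1.73 ± 0.16), but its brighter probe sets gave only -0.5 and -0.53, which passed, and -0.64, which did not (adjusted p = 0.0593). Snhg5 fell by -0.94 ± 0.131. Snhg1 fell by -0.71 ± 0.112 and Snhg6 by -0.72 ± 0.154 on the probe sets called, with adjusted p of up to 0.0533 and 0.174 without single wild-type arrays, and other Snhg1 probe sets gave -0.24 to -0.59. Snhg8 (-0.31) and Snhg16 (-0.02) did not pass. The second is the zinc finger genes with symbols starting Zfp, Zkscan or Zscan, grouped by symbol alone and leaving out the Zfp36 family. Of 130 such genes among the members 20 had a probe set called down (15.4%) and 2 one called up, beside 2.46% and 3.3% of all member genes. Zkscan14 fell from 755.3 and 723.4 to 85.16 and 88.91 (-2.87 ± 0.362), Zfp82 from 1044 and 1029 to 381.9 and 308.9 (-1.55 ± 0.218), Zfp90 from 2209 and 2453 to 1001 and 729 (-1.43 ± 0.182) and Zfp955a by -0.99 ± 0.14. These 4 of the 20 were called in each fit that left out an array.

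Other falls named by the rule had varied roles. Ephb3, a receptor of membrane-bound ephrins, went from 2657 and 2072 to 741.1 and 546.3 (-1.86 ± 0.257), Acrbp by -2.05 ± 0.248, and the DNA glycosylase gene Mbd4 by -1.51 ± 0.217. Atg14, a subunit of the lipid kinase that starts autophagosomes, went from 1931 and 1520 to 618.9 and 664.3 (-1.4 ± 0.174). Ajuba, a LIM scaffold of the Hippo pathway, went from 13850 and 14680 to 7648 and 6120 (-1.06 ± 0.134) and was the brightest of these. Tcta, Rbmx, Ngrn, Medag and Zfyve21 changed by -1.42 to -1.07 on the log2 scale, all called, Rbmx on 1 of 2 probe sets (the other at -0.28, not called). For Vdac1 and Lyrm2 the falls of -1.2 ± 0.151 and -1.09 ± 0.161 were seen on 1 probe set each, while their brightest probe sets gave 0.1 and 0.09.

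The genes that changed had shorter spans at the median than all members, by their RefSeq gene models in GRCm38.p6. The median span was 14.7 kb for 259 genes called up and 13.9 kb for 194 called down, against 23.2 kb for all 7862 member genes with a span. Among genes up over 2-fold the median was 10.9 kb and 45.6% were under 10 kb, and among genes down over 2-fold 12.2 kb and 45.2%, against 24.8% of all. The sets overlap with the whole and no test was made.

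The Med23-/- cells, with starved and serum arrays of their own, showed most of the same rises. The labels describe each genotype as 1 kind of culture. An effect of Med23 and any other difference between the cultures therefore cannot be told apart. Of the 358 wild-type rises 273 (76.3%) were also called up in knockout cells, which is 20.0% of the 1366 probe sets called up there, and 6 were called down. Of the 229 falls 152 (66.4%) were called down in knockout cells, 7.68% of the 1979 called down there, and 4 were called up. The knockout comparison made more calls on the whole, 9.33% of probe sets tested up and 13.8% down. These were 1395 rises and 2060 falls, but 1744 and 1241 with median centring and 1488 and 1527 with quantile normalization, so which direction held more calls turned with the scaling. Without knockout serum array 1 they were 769 and 812, and without knockout serum array 2 843 and 942. The difference of the responses was tested as an interaction, which passed for 402 (2.69%) of all probe sets tested, 1.61% with the knockout change higher and 1.08% lower. Among the wild-type rises it passed for 60 with a higher and 43 with a lower change in knockout cells, and among the falls for 11 and 6. The wild-type arrays enter both the choice of these probe sets and the difference, so those shares are a description. Among 20 genes of the AP-1 and EGR lists the interaction passed for 6, Jun (5.54), Atf3 (4.38), Egr1 (2.01), Jund (1.86), Maff (1.43) and Junb (1.25), all with the knockout change higher. The sizes for Jun and Atf3 rest on dim readings in starved knockout cells and on the 16 units added. A second Jun probe set gave a smaller difference, and these readings are given further below. The calls of Atf3, Maff and Junb were lost without single arrays. The interaction did not pass for Fos, Fosb and Nr4a1, which are among the largest wild-type rises. These 3 differed between genotypes by -0.14 ± 0.237, -0.3 ± 0.221 and 0.11 ± 0.242, with 95% intervals of -0.66 to 0.39, -0.8 to 0.19 and -0.42 to 0.65.

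**Figure D5:**
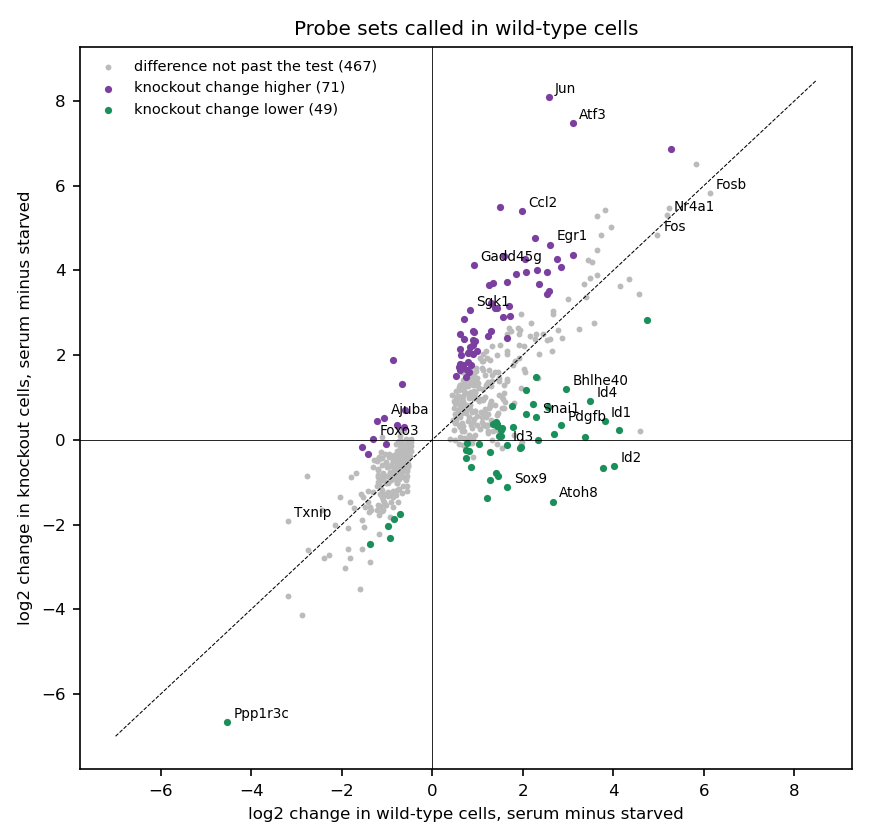
Each point is 1 of 587 probe sets called with serum in wild-type cells, with its log2 change in wild-type cells on the x axis and in knockout cells on the y axis; purple and green mark those whose difference passed the interaction test, and the dashed line marks equal changes. Fos, Fosb and Nr4a1 lie at the line, Jun and Atf3 above it, and Id1, Id2, Id3 and Id4 below it at knockout changes of 0.44, -0.66 (on its probe set of 3.78 in wild-type cells), -0.12 and 0.92; Atoh8 and Sox9 lie below 0 on the y axis, at -1.46 and -1.11.

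The rises that were larger in the wild-type than in the knockout cultures, for whatever reason these differ, included the Id family. The difference, knockout minus wild type, was -3.38 ± 0.386 for Id1 (95% interval -4.23 to -2.52), -4.44 ± 0.329 for Id2 (-5.17 to -3.71), -1.76 ± 0.223 for Id3 (-2.26 to -1.26) and -2.57 ± 0.273 for Id4 (-3.17 to -1.96). In knockout cells Id1 read 5544 and 4293 before and 7300 and 5984 after serum, and Id2 2239 and 2440 before and 1444 and 1507 after. The starved knockout arrays thus lay above the starved wild-type arrays for both genes, and the serum arrays below for Id1 and near them for Id2. Atoh8 differed by -4.12 ± 0.58, reading 4047 and 2826 before and 1232 and 1199 after serum in knockout cells. The same sign was seen for Sox9 (-2.76), Foxc2 (-2.57), Foxf2 (-2.18), Pdgfb (-2.51), Bhlhe40 (-1.77), Snai1 (-1.75), Spry2 (-1.45), Irs2 (-1.42), Vegfa (-0.91) and Smad7 (-0.81). The differences of Id1 to Id4, Atoh8, Sox9, Foxc2, Foxf2, Pdgfb, Bhlhe40 and Spry2 were called in each fit that left out an array. Those of Snai1, Irs2, Vegfa and Smad7 were not, at adjusted p of up to 0.0999, 0.0668, 0.0829 and 0.142 without 1 of the serum knockout arrays. Ankrd1 and Enc1, chosen after their values were seen, rose by 1.47 ± 0.185 and 1.51 ± 0.107 in wild-type cells and differed by -1.38 and -1.29, the first with adjusted p of up to 0.105 without serum array 2. Among the falls, Ajuba (1.58), Gas1 (0.91) and 1 probe set each of Foxo3 (1.31) and Rbmx (1.07) fell in wild-type cells with a difference above 0. The differences of Foxo3 and Rbmx were lost without single arrays of either genotype, and that of Gas1 without knockout serum array 1. Ajuba was called in each fit. Gas1 read 33440 and 32780 before and 30750 and 30450 after serum in knockout cells.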

How the data were processed

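Total RNA, purified with Trizol and RNeasy columns per the labels' protocols, was run on 1 array per sample. The authors deposited intensity values per probe set on a linear scale, with MAS5 named in the submitters' processing notes; its version and the platform are not given in the sources used here. Since MAS5 takes mismatch probes off the signal, dim probe sets are measured poorly.

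Of 22690 probe sets, 64 controls were left out, and of 22626 those at or above the array's 40th percentile on 2 or more of the 8 arrays (14947, 66.1%) were fitted. Of these, 13873 passed on 2 or more wild-type arrays. Of the 22626, 20380 named 1 gene, 691 several and 1555 none. The fit was limma 3.58.1 (R 4.3.3) on log2(signal + 16), with a mean for each of the 4 groups, a variance prior that follows the mean signal (eBayes trend; 4 residual and 6.07 prior degrees of freedom) and two-sided Benjamini-Hochberg adjustment over the 14947. A call is an adjusted p under 0.05, and errors are SE with n = 2 arrays per group. The number of arrays limits the precision. The procedure was tested on simulated data with independent noise for each probe set and array. Those data lack the differences between sets seen here, so the test does not cover them.

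The 28 gene lists, the members and the tests were chosen with earlier results of these data known. Each listed gene is represented by its probe set of highest mean log2 signal. Named by rule were list members and the 25 largest rises and 25 largest falls without overlap of arrays that were also called without each of the 8 arrays in turn; genes chosen after their values were seen are marked. Alternatives were smaller and larger pseudocounts, quantile normalization, median centring, other filters, no trend, a replicate block, 1 probe set per gene, no letter-suffix probe sets, wild-type arrays alone and leaving out each array. Promoter stretches and gene spans are from RefSeq (GRCm38.p6), matched by gene identifier for 6462 and 7862 of 7873 genes. The stretches printed were picked by gene symbol.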

Additional observations from a re-analysis of the deposited data

Results flagged for a closer look

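For 54 probe sets of named genes the response to serum differed between genotypes by the limma interaction test, and 30 of these differences were also called without each of the 8 arrays in turn. The Cdkn2b difference was lost in all 8 of those fits (adjusted p = 0.052 to 0.219). Those of Lif, Nfib, Rbmx and Smad7 were lost in 7, and those of Ccn2, Foxo3, Klf9, Skil and Vegfa in 6. The 14 lost in 1 to 5 fits were those of Ankrd1, Atf3, Egr2, Gas1, Ier2, Irs2, Junb, Klf10, Maff, Mcl1, Pmaip1, Ppp1r3c, Snai1 and Zfp36. All values that follow are differences of log2 changes, knockout minus wild type. They do not separate the loss of Med23 from other differences between the cultures.

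A smaller rise, or a fall, in knockout cells gave values below 0. For the Id genes, inhibitors of bHLH factors, they were -3.38 (Id1), -4.65 and -4.44 (the 2 probe sets of Id2), -1.76 (Id3) and -2.57 (Id4), and for the bHLH genes Atoh8 and Bhlhe40 -4.12 and -1.77. For factors of mesenchymal fate they were -2.76 (Sox9), -2.57 (Foxc2), -2.18 (Foxf2) and -1.75 (Snai1). Secreted signals gave -2.51 (Pdgfb), -0.91 (Vegfa) and -1.92 for the dimmer of the 2 Lif probe sets. Regulators of signalling gave -0.81 (Smad7), -1.45 (Spry2), -1.49 (Dusp7) and -1.42 (Irs2). Ankrd1 and Enc1 gave -1.38 and -1.29. Ppp1r3c (-2.14) and 1 Nfib probe set (-1.07) fell in wild-type cells and further in knockout cells.

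A larger rise in knockout cells gave values above 0, the highest for the AP-1 and stress-induced genes Jun (5.54) and Atf3 (4.38). In starved knockout cells these read 84.01 and 109.1 (Jun) and 164.4 and 23.6 (Atf3), all under that array's 40th percentile. The size of both differences thus rests on dim readings and on the 16 units added, and the second Jun probe set, with 593.2 and 512.5 there, gave 2.5. Other AP-1 and early factors gave 1.25 (Junb), 1.43 (Maff), 1.59 (1 Egr2 probe set), 2.01 (Egr1), 0.92 (Ier2), 1.21 (Ier5), 0.93 (Klf10), 1.22 (Klf9), 1.15 (Myc), 1.36 (Cebpb) and 1.74 (Nfil3). Secreted and surface proteins gave 3.42 (Ccl2), 1.14 (Ccn2), 2.21 (F3), 2.37 (Tnfrsf12a) and 1.91 (Ptgs2, an enzyme of prostaglandin synthesis). Feedback and survival genes gave 2.07 (Dusp1), 2.22 (Sgk1), 1.24 (Zfp36), 1.26 (Skil), 3.2 (Gadd45g), 1.34 (Pmaip1), 1.06 (Mcl1) and 1.7 (Noct).

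For probe sets that fell in wild-type cells and fell less or rose in knockout cells, the values were 1.31 (1 Foxo3 probe set), 1.07 (1 Rbmx probe set), 1.58 (Ajuba), 0.91 (Gas1), 1.38 (Cdkn2b) and 1.97 (Cebpd).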

How the results depend on the processing

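With 2 arrays per group, the calls depended most on single arrays. Leaving out 1 array in turn gave 312 to 705 wild-type calls (619 with all), 215 to 422 rises (365), 80 to 283 falls (254) and 127 to 495 interaction calls (402). With 1 probe set per gene there were 243 rises and 250 interaction calls, and with no filter 250 and with no mean-variance trend 214 interaction calls. The count over 2-fold with no overlap of arrays was 453, or 249 with the largest pseudocount tried, 1274 with no filter, 262 with a 60th percentile filter and 261 with 1 probe set per gene. Median centring moved the share of rises among calls from 59.0% to 66.7%. The other planned settings kept these counts within 1.5 times. Among 152 changes of named probe sets in wild-type cells, calls were lost for 27 to 36 without single wild-type arrays, 4 to 8 without single knockout arrays, 23 without the trend, 16 without the filter and 8 with wild-type arrays alone. With the brightest probe set per gene, Vdac1 and Lyrm2 changed sign (0.1 and 0.09), as did the differences of responses, knockout minus wild type, for Lif (0.31) and Nfib (0.51), by construction, since another probe set then stands for the gene.

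Set numbers 1 and 2 recur in each group, with no statement in the labels of what they share. Deviations between set 1 and set 2 correlated at 0.21 between the wild-type states, 0.1 between the knockout states and -0.03 to 0.01 across genotypes. A replicate block over all arrays gave 634 wild-type calls, and a block within wild-type arrays, chosen after seeing the data, 661. Low signals, the lack of detection calls and 1 time point of 30 min limit what can be read from small or late changes.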

Other observations

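The differences between the wild-type sets reached further genes. The chemokine gene Ccl9 read 4705 and 5219 on set 1 against 10760 and 10800 on set 2 in wild-type cells, and the phosphatase gene Ptprz1 531.6 and 464.6 against 1868 and 1684. The alarmin Il33 read 1444 and 852.4 on set 1 against 246.6 and 259 on set 2, and Ccn5, a matricellular gene, 5441 and 3828 against 1422 and 903.9. On the knockout arrays Col1a2 read 62380 to 91080, Nid1 14950 to 18200 and Mef2c 2094 to 2313, with no difference of that size between sets. In knockout cells 16 and 12 probe sets were over 2-fold higher on set 2 or on set 1 in both states, and 27 differed in opposite directions.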
